A study of Danio rerio with 2 samples.

Results

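Chromosome 15 and its block at 35 to 40 Mb were followed in 2 zebrafish melanoma cell lines, zcrest 1 and zcrest 2, through the accessible regions called in each line by ATAC-seq. The chromosome held 1949 of the 63335 regions of zcrest 1 and 1077 of the 53132 regions of zcrest 2. A region belonged to the block when its summit, the position of highest read number, lay from 35 Mb up to 40 Mb, and this gave 400 regions in zcrest 1 and 120 in zcrest 2. The other 1549 and 957 regions made up the rest of the chromosome. The block had been picked from the same lists for how the lines differed there, so what follows describes the difference, and no test was made of it.

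There was 1 library per line, made from 50000 cells, and so no replicate. Both lines had the listed genotype p53/BRAF/Na with the reporter crestin:EGFP and MiniCoopR alone, and both had gone through more than 20 passages. The meaning of Na was not given, and each comparison holds for these libraries alone. The melanoma identity of the cells was not checked here, because no gene annotation of the build of the files, Zv9, was used, and for the same reason no gene or sequence is given. The total number of reads per library is unknown.

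ATAC-seq uses a transposase that cuts and tags DNA where nucleosomes are absent or displaced. Promoters and enhancers are the usual sites of such open DNA, and melanoma is known to switch on genes of the neural crest, the embryonic tissue that gives rise to pigment cells. Crestin is a zebrafish neural crest marker of this kind, and MiniCoopR is a vector that rescues melanocytes with a copy of mitfa, the master regulator of this lineage. The number of reads at a site grows with how open it is and also with how many copies of that stretch of DNA the cells hold, and these cannot be told apart in lists of regions.

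Chromosome 15 was poor in open regions in zcrest 2, where it held the fewest of the 25 numbered chromosomes, and it ranked 6 from the fewest in zcrest 1. The ratio of region numbers, zcrest 1 over zcrest 2, was 1.81 on chromosome 15 and 1.18 on the pooled other chromosomes. Single chromosomes ran from 0.772 on chromosome 12 to 2.04 on chromosome 16, and chromosome 15 ranked 2 from the highest. The ratio was 3.33 in the block and 1.62 on the rest of chromosome 15. Chromosome 23 as a whole also had 1.62, so a lean of that size was not particular to chromosome 15. The balance thus leaned to zcrest 1 outside the block too, and further inside it.

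Open regions were packed more densely in the block in zcrest 1. They stood at 80.0 per Mb in the block and at 36.5 per Mb on the rest of the chromosome, a ratio of 2.19 (exact 95% binomial interval 1.96 to 2.45). In zcrest 2 they stood at 24.0 per Mb in the block and at 22.6 per Mb on the rest, a ratio of 1.06 (0.873 to 1.29). The intervals here and below cover counting error only and take neighbouring regions as independent, which they are not. The median space between neighbouring regions was 6931 bp in the block and 15260 bp on the rest in zcrest 1, and 18311 bp and 23331 bp in zcrest 2. Open sequence covered 35.7 bp per kb of the block and 15.6 bp per kb of the rest in zcrest 1, against 9.91 bp and 9.29 bp per kb in zcrest 2.

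The 5 windows of 1 Mb that make up the block were not alike. In zcrest 1 the windows starting at 35, 36, 37, 38 and 39 Mb held 56, 71, 118, 113 and 42 regions. In zcrest 2 the same windows held 23, 27, 20, 28 and 22. The first 4 windows of zcrest 1 lay above all 43 windows of the rest of the chromosome, which ran from 10 to 52 with a median of 40, and the window at 39 Mb lay within that range. All 5 windows of zcrest 2 lay within the range of its rest, 8 to 37 with a median of 23. Among the 1369 windows of 1 Mb with a region on the numbered chromosomes, the windows at 37 and 38 Mb ranked 2 and 4 in zcrest 1 by number of regions, and 1218 and 994 in zcrest 2. Over the 48 windows of chromosome 15 the numbers of the 2 lines had a Pearson r of 0.42 and a Spearman rho of 0.62, and over the 43 windows outside the block they had 0.74 and 0.69. These are given as a description, since neighbouring windows share a library and a mappable length.

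**Figure D1:**
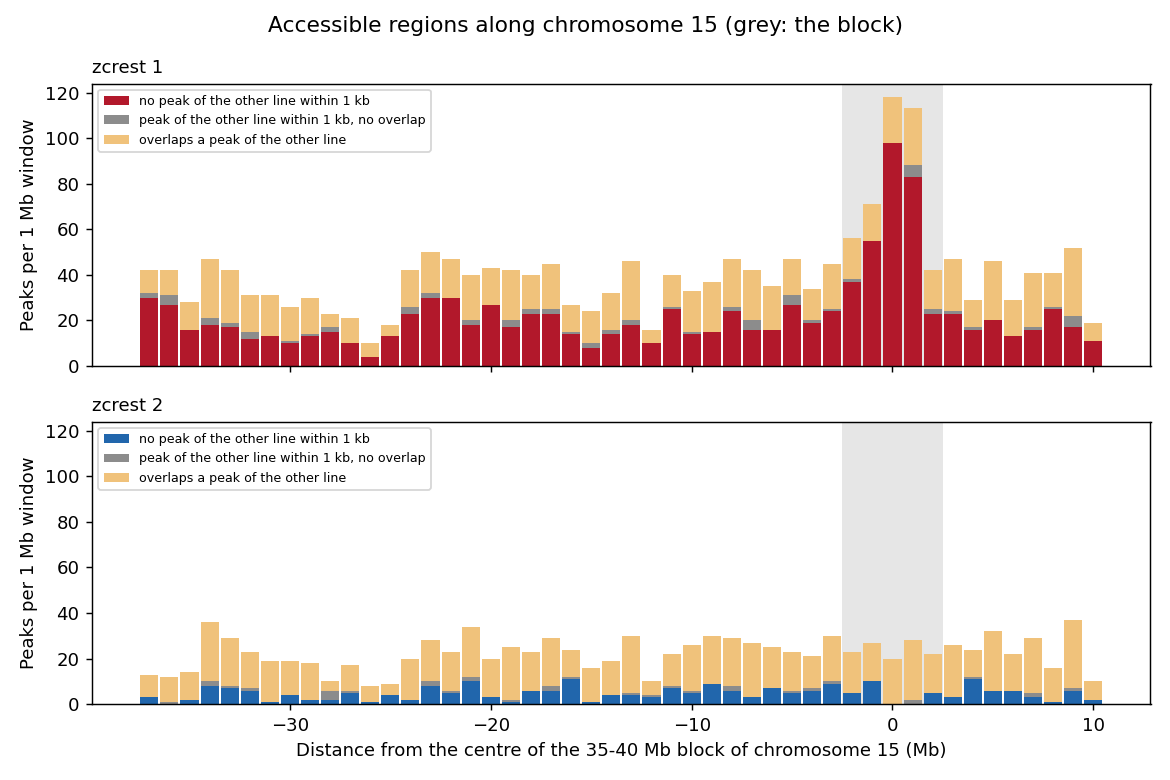
Number of regions per 1 Mb window of chromosome 15 in zcrest 1 (top) and zcrest 2 (bottom), against the distance of the window from the centre of the block in Mb, with colours for whether the other line had a region. In zcrest 1 the windows starting at 37 and 38 Mb reach 118 and 113 regions, most of them with no zcrest 2 region within 1 kb, while zcrest 2 stays between 20 and 28 through the block.

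Most open regions of zcrest 1 in the block had no called counterpart in zcrest 2. An overlap of 1 bp or more with zcrest 2 was found for 96 of the 400, 24.0% (exact interval 19.9% to 28.5%), against 713 of 1549, or 46.0% (43.5% to 48.5%), on the rest of the chromosome. Over all numbered chromosomes the share was 54.7%. Counted as found in zcrest 1 alone, with every zcrest 2 region over 1 kb away, were 296 of the 400, 74.0% (69.4% to 78.2%), and 774 on the rest, 50.0% (47.4% to 52.5%), where the share over all numbered chromosomes was 41.6%. The median region found in zcrest 1 alone lay 23492 bp from the nearest region of zcrest 2 in the block and 16944 bp on the rest. These shares are part of what the block was picked for. They also depend on the region numbers. Matched 1 to 1, the 120 regions of zcrest 2 in the block could pair with at most 120 of the 400. The shares are thus not separate from the difference in density.

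The regions of zcrest 2 in the block were, in contrast, mostly shared. Of the 120, 98 overlapped a region of zcrest 1, 81.7% (73.6% to 88.1%), against 721 of 957, 75.3% (72.5% to 78.0%), on the rest. The share over all numbered chromosomes was 64.9%. In zcrest 2 alone were 20 regions of the block, 16.7% (10.5% to 24.6%), and 204 of the rest, 21.3% (18.8% to 24.0%), where 30.8% of the whole list was. From 37 to 39 Mb, 0 of the 48 regions of zcrest 2 were found in that line alone, which allows a share of up to 6.25%, and 46 overlapped a region of zcrest 1. The window at 36 Mb held 10 of the 20, and the windows at 35 and 39 Mb held 5 each.

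Regions of zcrest 1 in the block stood on more reads but were less enriched over their surroundings. The median summit had 24 overlapping reads in the block and 18 on the rest of the chromosome. The local background, the read number that the peak caller took as chance level around a region, was 4.86 reads in the block and 1.82 on the rest. Set against the median of the line over the numbered chromosomes, this was 2.17 and 0.813 times. At least 2 times that median was reached by 220 of the 400 regions of the block and by 56 of the 1549 of the rest, where 12.0% of the whole list reached it. In zcrest 2 it was reached by 0 of the 120, which allows a share of up to 2.5%, and by 17 of the 957, where 9.84% of the whole list reached it. The median deposited fold enrichment was 4.47 in the block and 6.08 on the rest, and the median deposited -log10 q was 7.92 and 9.21. In zcrest 2 the median summit had 18 reads in the block and 17 on the rest, the background was 0.759 and 0.694 times the median of that line, and the median fold enrichment was 5.64 in both. The window behind the local background also holds the reads of a region and its close neighbours, so dense or strong regions raise it, and its part in the other differences was not tested. Among regions at or below the list's median read number, the background of the block was 1.67 times the median of such regions in zcrest 1 and 0.860 times in zcrest 2, and that of the rest was 0.893 and 0.860 times.

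The raised background was found in the middle of the block. The 2 limits, in steps of 100 kb, that best divided the log2 background of zcrest 1 into 3 levels were 36.1 and 38.6 Mb. They were found after the values were seen and from the background itself. Between them the median background of zcrest 1 was 2.62 times the median of the line, against 1.01 times from 35 to 36.1 Mb and 1.15 times from 38.6 to 40 Mb. Just 1 of the 259 regions of zcrest 1 in the middle stretch lay at the genome-wide background, which is the floor of the measure, 0.386% (0.00977% to 2.13%). In the whole list 22.3% did, and on the rest of the chromosome 573 of 1549. No other region of the stretch lay below the median of the line. In zcrest 2, 29 of the 53 regions of the same stretch lay at the genome-wide background, 54.7% (40.4% to 68.4%), against 526 of 957 on the rest of the chromosome, 55.0%, and 19.8% in the whole list. Of the 50 bins of 100 kb in the block, 25 had a median background of at least 2 times the median of the line in zcrest 1, 22 of them among the 25 bins of the middle stretch, and 0 did in zcrest 2. Outside that stretch the bin starting at 35.8 Mb was among them, with 2.13 times.

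**Figure D2:**
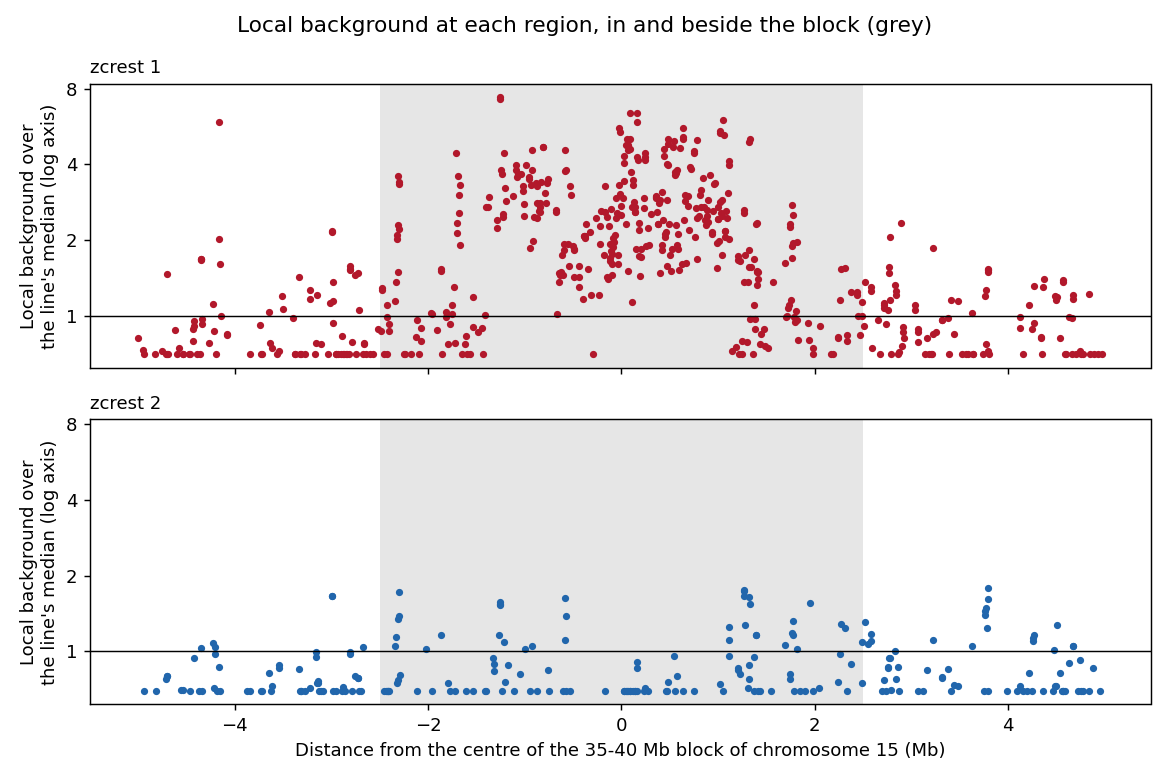
Local background at each region within 5 Mb of the centre of the block, over the median of the line, on a log axis, in zcrest 1 (top) and zcrest 2 (bottom), with each dot a region. In zcrest 1 the dots between 36.1 and 38.6 Mb, a distance of about -1.4 to 1.1 Mb, lie at or above 1 with 1 exception and reach 7.44, and in zcrest 2 the highest of the block is 1.75.

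Region numbers in zcrest 1 were highest in the same stretch, whose limits were set on a background that dense regions raise. From 36.1 to 38.6 Mb zcrest 1 had 259 regions, 104 per Mb, of which 216 were found in zcrest 1 alone, 83.4%. From 35 to 36.1 Mb it had 60, with 40 in zcrest 1 alone, and from 38.6 to 40 Mb it had 81, also with 40. In zcrest 2 the 3 stretches held 24, 53 and 43 regions from low to high position, of which 19, 43 and 36 overlapped zcrest 1. Per Mb this was 21.8, 21.2 and 30.7, so the stretch of highest density in zcrest 1 was not the densest in zcrest 2. Of the 50 bins of 100 kb in the block, 8 had no region of zcrest 2. The middle stretch, with 25 of the bins, held 7 of these 8. Each of the 50 bins had regions of zcrest 1. Bins outside the block were not counted. On the rest of the chromosome zcrest 2 had 22.6 regions per Mb, near the 21.2 of the middle stretch.

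Where both lines had a region in the block, zcrest 1 mostly had more reads at it. The block held 96 regions matched 1 to 1 between the lines, and the median summit of these had 41.5 reads in zcrest 1 and 20 in zcrest 2. On a log2 scale the median pair had 1.12 as its ratio of zcrest 1 to zcrest 2 (exact rank interval 0.75 to 1.5), with the median of all pairs on the numbered chromosomes set to 0. This is a ratio of 2.17. On the rest of the chromosome the median log2 ratio over 703 pairs was 0.27 (0.22 to 0.31). Above 0 lay 84 of the 96 pairs of the block and 478 of the 703 of the rest, against 50.0% of all pairs. A ratio of at least 2-fold towards zcrest 1 was reached by 50 of the 96 pairs of the block, 52.1% (41.6% to 62.4%), and by 83 of the 703 on the rest, 11.8%, where 9.99% of all pairs reached it. At least 4-fold was reached by 22 pairs of the block and by 5 of the rest, where 1.12% of all pairs were. The opposite, at least 2-fold towards zcrest 2, was seen in 1 pair of the block and 13 of the rest, against 6.37% of all pairs.

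Set against all pairs, the excess of the median pair was in reads and not in the deposited fold enrichment. With the deposited fold enrichment in place of reads, centred likewise, the median log2 ratio of the block was 0.036 and that of the rest 0.046. As deposited, the median fold enrichment of paired regions was higher in zcrest 1 throughout. It was 7.13 against 5.97 in zcrest 2 in the block, 7.52 against 6.27 on the rest and 6.99 against 5.97 over all pairs. The fold enrichment divides the reads by the local background, which holds the region's own reads and was itself higher in zcrest 1 in the block. With the local background subtracted from the reads, it was 1.09 and 0.26. Among pairs with at least 60 reads in both lines together it was 1.63 in the block and 0.27 on the rest. Single pairs of these in the block differed in fold enrichment too. As deposited, it was 10.9 in zcrest 1 and 5.31 in zcrest 2 at the highest read ratio, and 7.54 and 10.2 at the lowest.

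The ratio was uneven along the block. In the windows at 35, 36, 37, 38 and 39 Mb the median log2 ratio was 0.16, 1.56, 2.11, 0.86 and 0.13, over 18, 16, 20, 25 and 17 pairs. The windows at 36 and 37 Mb lay above the range of the 43 windows outside the block, -0.28 to 1.14. Between 36.1 and 38.6 Mb the 42 pairs ran from 0.32 to 3.47 with a median of 1.96 (1.71 to 2.26). Each pair of that stretch thus lay above the genome-wide median, and 38 of 42 were at least 2-fold. The limits of the stretch were set on the background of zcrest 1, which holds reads of these regions. High ratios there are therefore partly built in. From 38.6 to 40 Mb the median was 0.53 (0.25 to 0.75) over 35 pairs, and from 35 to 36.1 Mb it was 0.24 (-0.07 to 0.92) over 19. The bins of 100 kb starting at 38.5 and 38.6 Mb had medians of 3.26 and 0.67, over 2 and 3 pairs. On the low side the bins starting at 35.9, 36 and 36.1 Mb had 0.50, 1.15 and 2.13, each from 1 pair.

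**Figure D3:**
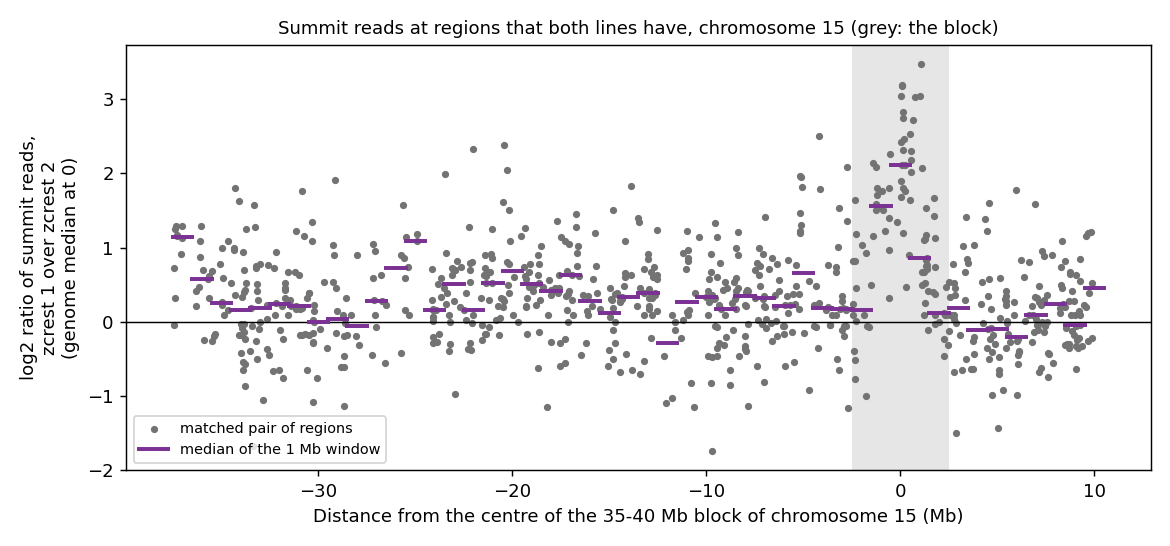
Log2 ratio of summit reads, zcrest 1 over zcrest 2, for each matched pair of regions of chromosome 15 (dots) and the median of each 1 Mb window (bars), against the distance from the centre of the block in Mb, with 0 the median of all pairs on the numbered chromosomes. The windows starting at 36 and 37 Mb have medians of 1.56 and 2.11, and the window at 38 Mb has 0.86. The outermost windows of the block, at 35 and 39 Mb, have 0.16 and 0.13.

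The pairs of the block also differed in width. The median matched region spanned 542 bp in zcrest 1, against 390 bp in zcrest 2, and it was wider in zcrest 1 in 71 of 96 pairs, 74.0%, where 50.3% of all pairs were. The median difference was 108 bp in the block and 34 bp on the rest, where zcrest 1 was wider in 427 of 703 pairs. The summits of a pair lay a median of 24 bp apart in the block and 31 bp on the rest, and they were within 100 bp of each other in 83 of the 96 and 535 of the 703 pairs. Over all pairs on the numbered chromosomes the median distance was 32 bp and 76.5% were within 100 bp, so the rest of the chromosome was at the level of the genome.

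Taken over all regions, shared or not, width differed little. The median was 394 bp in the block and 392 bp on the rest in zcrest 1, and 353 bp and 370 bp in zcrest 2. The direction of these differences changed with the setting. With limits of 36 and 39 Mb the median was 392 bp in the block and 394 bp on the rest in zcrest 1, and among regions whose -log10 q reached 10 it was 535 bp and 515 bp in zcrest 2. Shared regions of zcrest 1 were 542 bp wide in the block and 472 bp on the rest, and those in zcrest 1 alone were 359 bp and 333 bp. Each kind was wider in the block, and the narrower kind made up more of it. At least 1 kb was reached by 6 of the 400 regions of the block in zcrest 1, 1.5% (0.552% to 3.24%), and by 13 of the rest, 0.839%, against 1.98% of the whole list, and by 1 of 120 regions of the block in zcrest 2, where 2.64% of the whole list reached it.

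The share of regions found in zcrest 1 alone, for which the block was picked, was higher in the block in each of the 5 classes of strength. By the deposited -log10 q, regions of the block under 5 were in zcrest 1 alone in 94.2% of cases (113 of 120), those from 5 to 10 in 85.1%, those from 10 to 20 in 66.7%, those from 20 to 40 in 44.9% and those of 40 and over in 27.8% (10 of 36, interval 14.2% to 45.2%). On the rest of the chromosome the same classes gave 73.7%, 59.5%, 39.4%, 23.9% and 8.70% (4 of 46, 2.42% to 20.8%). On the other numbered chromosomes they gave 64.2%, 49.0%, 31.2%, 18.2% and 8.74%. The rest of chromosome 15 thus lay above the other chromosomes too, except in the highest class. The -log10 q also depends on the local background, so these classes did not match regions by reads. In the highest class the median summit of zcrest 1 had 109 reads in the block and 62 on the rest. In the lowest it had 15 and 10. With -log10 q of at least 10, 86 of 166 regions of the block were in zcrest 1 alone, 51.8% (43.9% to 59.6%), against 230 of 715 on the rest, 32.2% (28.8% to 35.7%), and 24.2% of the whole list. In zcrest 2, 3 of 50 such regions of the block were in that line alone, and 28 of 396 of the rest, where 9.94% of the whole list was. The highest class was empty for the block in zcrest 2, in which no region reached a -log10 q of 40.

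**Figure D4:**
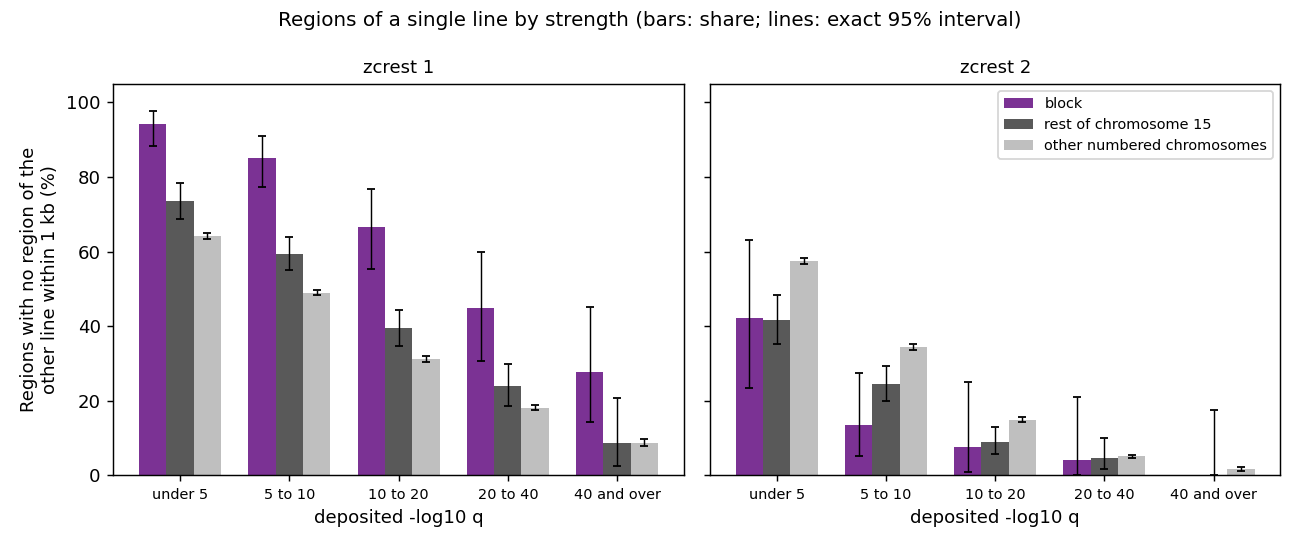
Share of regions with no region of the other line within 1 kb, in classes of the deposited -log10 q, for the block, the rest of chromosome 15 and the other numbered chromosomes, in zcrest 1 (left) and zcrest 2 (right), with exact 95% binomial intervals. In zcrest 1 the block is above the rest of the chromosome in each class, 94.2% against 73.7% in the lowest and 27.8% against 8.70% in the highest.

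A region absent from the list of zcrest 2 can have been present below its calling threshold. The lowest summit called in zcrest 2 had 8 reads, and 11 reads was the 5th percentile of its list. The 216 regions of zcrest 1 alone between 36.1 and 38.6 Mb had a median of 24 reads at the summit and ran from 7 to 130. Divided by the median ratio of the pairs of that stretch before centring, 3.65, this median becomes 6.57 reads, and 142 of the 216 regions, 65.7%, come out under 8 reads. In the stretches from 35 to 36.1 Mb and from 38.6 to 40 Mb, with ratios of 1.11 and 1.36, 1 of 40 and 9 of 40 do. Under 11 reads come 182 of the 216, 84.3%, against 16 of 40 and 23 of 40 in those stretches. The contrast between the stretches is smaller at that limit. Before division the medians of those stretches were lower than that of the middle, at 15.5 and 13.5 reads. The contrast thus comes from the ratios used as divisors. That of the middle stretch is partly built in, because its limits were set on the background of zcrest 1. The ratio comes from regions called in both lines, and reads outside called regions were not analysed here, so what zcrest 2 had at those sites was not tested.

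The missing counterparts came in long runs. A run is here a series of neighbouring regions of zcrest 1, each without a region of zcrest 2 within 1 kb. Its length is counted in regions. Such runs were part of what the block was picked for. They also grow with the share found in zcrest 1 alone, so they add no separate support. The block held 19 runs of at least 5, 1 of which crossed its lower limit, and 214 of its 400 regions, 53.5%, lay in such runs. On the rest of the chromosome 229 of 1549 did, 14.8%, and in the whole list 10.9%. Runs of at least 10 numbered 7 in the block, with 138 regions, 34.5% of its regions, and 3 on the rest, with 48, 3.10%, against 2.57% of the whole list. In zcrest 2 the longest run of the block had 4 regions and that of the rest 3. Over all numbered chromosomes the longest of zcrest 2 had 21, and 4.23% of its regions lay in runs of at least 5.

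The 5 longest runs of the chromosome included 4 of the block. The longest lay at 38255735 to 38515402 bp and held 31 regions over 260 kb. Their summits ran from 15 to 130 reads with a median of 24, on a median background 2.62 times that of the line. The next, at 37334420 to 37515028 bp, held 29 regions over 181 kb, with 12 to 97 reads at the summit. These ranked 2 and 3 by number of regions among the runs of zcrest 1 in the genome. Ahead of them was a run of 67 regions on chromosome 3 at 50838395 to 51261650 bp, on a background 3.83 times the median. The run at 36974059 to 37319187 bp held 24 regions over 345 kb, with 7 to 54 reads. It shared rank 4 with a run of 24 regions on chromosome 20, on a background 5.10 times the median. The run at 37790086 to 37954746 bp held 19 regions over 165 kb, with 13 to 117 reads. No region of zcrest 2 lay anywhere inside these 4 runs of the block.

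The longest run outside the block was of a different make. It lay near the start of the chromosome at 495127 to 1164048 bp and held 20 regions over 669 kb, with 8 to 29 reads at the summit and a median of 13.5. Its median background was 0.717 times that of the line, close to the genome-wide value of 0.702. The first 2 windows of the chromosome held 30 and 27 regions in zcrest 1 alone, of 42 each, and their pairs had median log2 ratios of 1.14 and 0.57 over 10 and 11 pairs. So long runs occurred on chromosome 15 both on a raised background, in the block, and without one. In the block too, a run of 9 at 35251515 to 35535686 bp stood on a background of 0.795 times the median of the line, outside the middle stretch, with 9 to 19 reads at the summit.

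**Figure D5:**
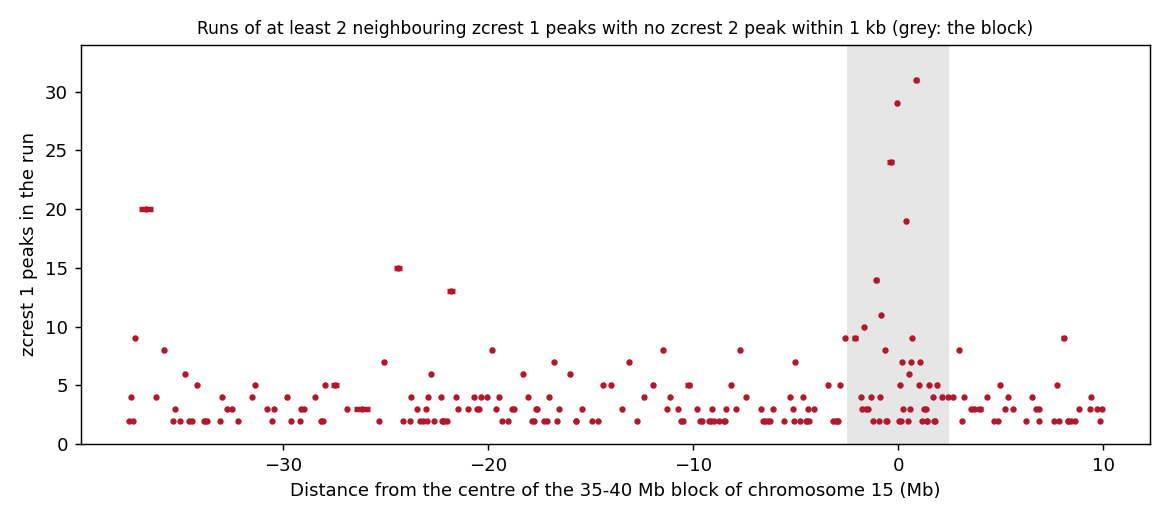
Runs of at least 2 neighbouring zcrest 1 regions with no zcrest 2 region within 1 kb on chromosome 15, by their number of regions and their distance from the centre of the block in Mb, with each bar spanning the run. The runs of 31, 29 and 24 regions lie in the block, and the longest outside it, of 20, lies near the start of the chromosome.

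A run could hold regions of zcrest 2 between its members. Between 36304386 and 36549619 bp a run of 14 regions of zcrest 1 alone, with 19 to 53 reads and a background 3.53 times the median, had 4 regions of zcrest 2 between its members, none within 1 kb of them. No run of zcrest 2 on the chromosome was longer than 4 regions, and the only other of 4 lay close by, at 36171679 to 36238034 bp. The 4 interleaved regions, at 36329513 to 36500286 bp, had 9 to 27 reads with a median of 11.5. In this stretch each line thus had open regions where the other had none called.

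The strongest regions of zcrest 1 in the block were called in both lines and were far weaker in zcrest 2. The first, at 37548107 to 37548732 bp, reached 167 reads and a 14.3-fold enrichment and ranked 9 in the whole list of zcrest 1. Its partner in zcrest 2, at 37548164 to 37548634 bp, had 33 reads, and the centred log2 ratio was 2.43. The region at 36287399 to 36288492 bp had 148 reads in zcrest 1 and 48 in zcrest 2, where it was the second strongest of the block. The region at 38608578 to 38609118 bp had 142 and 36 reads, that at 38552431 to 38553394 bp had 157 and 15, and that at 38039923 to 38040770 bp had 141 and 37. All 5 had at least 3 times the reads in zcrest 1.

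The strongest region of the rest of the chromosome was the reverse. At 45149324 to 45150416 bp it had 185 reads in zcrest 1, and at 45149309 to 45150427 bp it had 266 in zcrest 2. The centred log2 ratio was -0.44. The region ranked 8 in zcrest 1 and 2 in zcrest 2. At that site the order of the lines was thus the opposite of that at most pairs of the block, where 84 of 96 had a log2 ratio above 0.

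The block also held strong regions of zcrest 1 with no region of zcrest 2 within several kb. The first of these, at 38279154 to 38279978 bp, reached 130 reads with an enrichment of 10.8-fold and a -log10 q of 84.5, and zcrest 2 had no region within 27.5 kb. The next, at 37938880 to 37939602 bp and at 38104792 to 38105627 bp, had 117 and 118 reads, with zcrest 2 23.1 and 33.1 kb away. The region at 38557699 to 38558170 bp had 115 reads and lay 4.72 kb from zcrest 2, and that at 37612780 to 37613371 bp had 89 reads and lay 10.3 kb from it. All 5 were in the middle stretch, on backgrounds 2.71 to 5.21 times the median of the line, own reads included.

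The strongest regions of zcrest 2 in the block lay partly outside that stretch. The first, at 39815884 to 39816862 bp, had 51 reads in zcrest 1 and 51 in zcrest 2. The second was the region at 36287691 to 36288496 bp named above. The third, at 39311655 to 39312428 bp, had 55 reads in zcrest 1 and 45 in zcrest 2. In zcrest 2 alone, the strongest region of the block was at 36171679 to 36172424 bp, with 34 reads, a 9.41-fold enrichment and no region of zcrest 1 within 35986 bp. It was followed by 36499471 to 36500286 bp, with 27 reads, and 35086040 to 35086421 bp, with 19.

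The widest regions of zcrest 1 in the block were of unlike strength. The widest, 1155 bp at 37480295 to 37481449 bp, had 97 reads and no region of zcrest 2 within 41.7 kb. The next, 1096 bp at 35826455 to 35827550 bp, had 32 reads and a 3.92-fold enrichment on a background 3.31 times the median. The third, of 1094 bp, was the region at 36287399 bp described above.

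Among the 56 pairs of the block with at least 60 reads in total, the highest ratio, 11.1, was that of the region at 38552431 bp. Its width was 964 bp in zcrest 1, against 344 bp in zcrest 2. The ratios here are centred on the median of all pairs, so they differ from plain ratios of the reads. The region at 37585595 to 37586177 bp followed, where zcrest 1 had 95 reads, zcrest 2 had 11 and the ratio was 9.17. The lowest ratios were at the upper end of the block. They were 0.727 at 39760593 to 39761222 bp, with 26 and 38 reads, and 0.803 at 39985242 to 39985989 bp, with 31 and 41.

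The regions next to the limits of the block were as follows, and none of them stood on a raised background in zcrest 1. In zcrest 1 the first region inside the lower limit, with its summit at 35012915 bp, had 19 reads, and the last one outside, at 34981779 bp, also had 19, on backgrounds 0.866 and 0.884 times the median. In zcrest 2 the first inside, at 35046160 bp, had 9 reads and the last outside, at 34829952 bp, had 50. At the upper limit the last region inside had 30 reads in zcrest 1, with its summit at 39992507 bp, and 22 in zcrest 2, at 39992529 bp. The first outside had 12 reads in zcrest 1, at 40013277 bp, and 36 in zcrest 2, at 40019454 bp. With limits of 36 and 39 Mb instead, the density ratio of zcrest 1 was 2.72 and the median log2 ratio of the pairs 1.64.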

How the data were processed

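ATAC-seq gave 1 peak list for each of 2 libraries. The caller was MACS2 2.1.0 and the build Zv9, per the submitters' processing notes, and the peak names show a call per library. Aligner, duplicate handling, transposase shift and read totals: not given in the sources used here. Both deposited lists hold a score, which is the -log10 q times 10 cut to a whole number (1 peak differs), besides the fold enrichment, the p and q as -log10 values, and the summit's offset. These deposited values, -log10 included, are the authors' own and describe peaks within a list.

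Fold enrichment, as deposited, is (pileup + 1) / (local background + 1) at the summit, and the -log10 p is a Poisson test of the same pair, by the usual layout of such lists. Both were solved for a whole-number pileup up to 800, which met the deposited -log10 p within 0.001 for 100% of peaks. The pileup is the number of overlapping extended reads at the summit. In zcrest 1 the background was 1.57 reads genome-wide and 2.24 at the median peak, and in zcrest 2 it was 2.01 and 2.90. Pairs were matched 1 to 1 by largest overlap, and their log2 ratios were centred on the median over 33889 pairs on the numbered chromosomes, -0.09 before centring. The length of the chromosome was taken as the end of its last peak, 47.4 Mb. Medians carry exact rank intervals and shares exact (Clopper-Pearson) intervals of 95%. For a count of 0 the upper limit printed is instead the approximate one of 3 over the number of regions. Positions count from 1.

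Regions were named by rule: the 5 strongest zcrest 1 regions of the block, the 5 strongest in zcrest 1 alone, the 3 strongest of zcrest 2 and of zcrest 2 alone, the 5 longest runs and the longest outside the block, the 3 widest, those next to each limit, 4 pairs of extreme ratio and the strongest of the rest. The block, the measures and this rule were chosen with earlier results of these data known. The 36.1 and 38.6 Mb limits, the runs of 9 and 14, and the bins of 100 kb were picked after their values were seen. The steps were tested on simulated data. Python 3.11.15, numpy 2.4.6, pandas 2.3.3 and scipy 1.17.1 were used. The 3 mitochondrial peaks of each list were left out.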

Additional observations from a re-analysis of the deposited data

Results flagged for a closer look

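In 4 measures the block differed from the rest of chromosome 15 in opposite directions in the 2 lines. With 1 library per line the differences were not tested. The share of regions that overlapped the other line was lower in the block by 22.0 percentage points in zcrest 1 (a difference of -22.0) and higher by 6.33 in zcrest 2. The share with no region of the other line within 1 kb differed by 24.0 percentage points in zcrest 1 and by -4.65 in zcrest 2. In zcrest 2 the intervals of the block and the rest overlapped for both shares. Both shares were part of what the block was picked for. They are close to complements of each other and are not 2 separate results. In the block about the same number of shared regions, 96 and 98, was divided by 400 and by 120. The median width differed by 1.5 bp in zcrest 1 and by -17.0 bp in zcrest 2. For width the intervals of the block and the rest overlapped in both lines. The opposite directions in width held with lists of equal length but not under the other settings tried. With limits of 36 and 39 Mb the median width was lower in the block in both lines, at 392 bp against 394 bp in zcrest 1 and 346 bp against 373 bp in zcrest 2. Among regions whose -log10 q reached 10 it was higher in the block in both, at 573 bp against 515 bp in zcrest 1 and 535 bp against 515 bp in zcrest 2. The share of regions with a -log10 q of at least 10 differed by -4.66 percentage points in zcrest 1 and by 0.287 in zcrest 2. In zcrest 2 it was 50 of 120 regions in the block, 41.7%, and 396 of 957 on the rest, 41.4%. These are nearly equal, so the direction in zcrest 2 carries no weight.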

How the results depend on the processing

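All settings tried were planned. Of 54 values for the block under another setting, 35 stayed within their interval, or within 1.5 times for counts, and 19 moved. No log2 ratio changed sign, but the difference in median width between the block and the rest of the chromosome did. With a -log10 q of at least 10 in both lists, which left 29005 and 21705 regions, the median width of the block was 573 bp in zcrest 1 and 535 bp in zcrest 2, against 515 bp on the rest in both, the regions of a single line numbered 121 and 6, and 9 runs of at least 5 were left. With lists of equal length, the median width in zcrest 1 was 444 bp, the shared share 28.9% and the longest run 20. With a reciprocal overlap of 50% the shared share was 19.5% in zcrest 1 and 65.0% in zcrest 2, and with summits within 100 bp it was 69.2% in zcrest 2. With block limits of 36 to 39 Mb the median width in zcrest 1 was 392 bp, against 394 bp on the rest, the density ratio of zcrest 1 was 2.72, its background 2.48 times the median and the log2 pair ratio 1.64. Without the window at 37 Mb the density ratio was 1.93. The centred log2 pair ratio was 0.036 for fold enrichment and 1.63 for pairs of at least 60 reads. Background at weaker regions was 1.67 times in zcrest 1 and 0.860 times in zcrest 2, the latter the lowest value the measure can take. The fold enrichment divides by a background that was itself higher in zcrest 1, and the stricter lists hold fewer regions by construction. The cause of the other shifts was not tested. No paired analysis was possible because each line has 1 library. Read totals are unknown, so a region missing from a list was not shown to be closed.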
